A study of Saccharomyces cerevisiae with 34 samples.

Results

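Genes near the ends of chromosomes were followed through 34 RNA-seq libraries of budding yeast. A gene belonged to this set when its start lay under 20 kb from the left end of its chromosome, or its end within 20 kb of the end of the last gene listed on that chromosome. *LYS1* and 1 retrotransposon gene were set aside. This left 219 of 6209 genes (3.53%), with 93 at left ends, 126 at right ends and between 2 and 13 at each of the 32 ends of the 16 chromosomes. The last listed gene lies between 349 and 9893 bases short of the end of the reference chromosome, and 29 of the right-end genes lie more than 20 kb from that reference end. Distances from a right end are counted below from the end of the last listed gene, unless stated otherwise. They are therefore shorter than the distances to the reference chromosome end.

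The study compared 6 genotypes, each grown in lactic acid medium and sampled at t0, when galactose was added to 2%, and again at t2, 2 hours later. Besides wild type (WT) there were strains without the ubiquitin ligase that targets surplus CENP-A Cse4 (*psh1Δ*) and strains without the histone variant H2A.Z Htz1 (*htz1Δ*). A tagged CENP-A under the GAL promoter was carried with Psh1 present (*pGAL-3Flag-CSE4*) or absent (*psh1Δ pGAL-3Flag-CSE4*), and a further genotype expressed histone H3 from that promoter (*pGAL-H3*). The strains were *MATa* and isogenic with W303, and per the study's strain list all carried *bar1-1*, *bud4*, *can1-100* and *RAD5*. The background held auxotrophic alleles of *URA3*, *LEU2*, *HIS3*, *TRP1* and *ADE2*, to which the integrated plasmids added a *LEU2* or *TRP1* marker gene. The *PSH1* gene was replaced by a KAN or HYG cassette and *HTZ1* by HYG, and the cultures grew at 23 °C. *pGAL-3Flag-CSE4* was integrated at the *LEU2* locus with a *LEU2* marker, and *pGAL-H3* at the *TRP1* locus with a *TRP1* marker. Wild type lacked both markers, so in comparisons with WT the marker cannot be told apart from the induced histone gene. Each genotype had 1 culture in each of batches 1, 2 and 3, every one of another strain isolate, but batch 1 has no *pGAL-3Flag-CSE4* culture. Wild type carried neither a deletion nor a galactose-driven histone gene, and WT and *htz1Δ* cultures received the same galactose as the others.

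In budding yeast, telomeres end in repeats of a G-rich sequence bound by Rap1, which recruits the Sir proteins that silence genes close to the end. H2A.Z is placed in nucleosomes at promoters by the *SWR1* complex, and in regions next to silent chromatin it is known to limit the inward spread of Sir proteins. Many of the genes found there belong to families with several near-identical copies, and many are used only under particular supplies of sugars, metals, phosphate or vitamins.

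The sequence that makes a chromosome end is shown for the right end of chromosome III, because 5 of the 8 members there were lower in *htz1Δ* at t2 (below). It is the last 100 bases of the reference chromosome (R64, the assembly also called SacCer3), chrIII:316521-316620, on the forward strand, with each match to TGTGGGTG in capitals, overlapping matches included.
III right end: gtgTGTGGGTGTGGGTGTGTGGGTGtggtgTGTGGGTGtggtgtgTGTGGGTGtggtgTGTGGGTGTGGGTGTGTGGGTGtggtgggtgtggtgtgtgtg
This motif stood in the last 100 bases of 22 of the 32 ends, read towards the end. For comparison, it was found on either strand in the first 100 bases of the upstream windows described next in 16 of 6209 genes (0.258%).

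Upstream sequence is shown for 4 members that were lower in *htz1Δ* at t2, from 300 to 101 bases before the start codon, which is 200 bases, read in the direction of the gene. Capitals mark TATAAA on either strand (TTTATA is its reverse complement), and matches that overlap run together. The windows are *YDR541C* at chrIV:1520799-1520998 (minus strand), *FET4* at chrXIII:914639-914838 (minus strand), *ADH7* at chrIII:308770-308969 (plus strand) and *RDS1* at chrIII:310658-310857 (plus strand), in R64.
YDR541C: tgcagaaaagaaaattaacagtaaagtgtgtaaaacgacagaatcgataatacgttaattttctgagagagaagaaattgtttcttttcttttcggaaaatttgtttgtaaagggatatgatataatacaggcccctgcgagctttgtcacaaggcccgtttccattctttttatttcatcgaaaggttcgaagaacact
FET4: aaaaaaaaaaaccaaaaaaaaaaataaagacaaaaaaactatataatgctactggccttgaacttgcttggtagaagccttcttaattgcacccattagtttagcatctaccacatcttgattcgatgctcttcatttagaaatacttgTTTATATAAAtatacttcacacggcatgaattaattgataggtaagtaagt
ADH7: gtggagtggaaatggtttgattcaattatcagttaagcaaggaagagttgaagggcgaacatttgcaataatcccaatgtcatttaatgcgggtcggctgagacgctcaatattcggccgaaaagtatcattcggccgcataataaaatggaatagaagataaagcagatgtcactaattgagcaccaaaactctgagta
RDS1: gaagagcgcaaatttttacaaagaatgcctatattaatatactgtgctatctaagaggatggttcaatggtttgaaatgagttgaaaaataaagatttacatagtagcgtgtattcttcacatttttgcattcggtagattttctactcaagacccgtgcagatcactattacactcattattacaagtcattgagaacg
*FET4* held 2 overlapping matches and the other windows none. Over all genes 2084 of 6209 windows (33.6%) held the motif, against 85 of the 219 members (38.8%) and 8 of the 28 members lower in *htz1Δ* at t0 or t2 (28.6%). A match is a description of the letters only.

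The copies within families bear on every count. A read of 50 bases from a stretch that occurs elsewhere in the genome cannot be placed, and 94 of the 219 members (42.9%) had fewer than 95% of their 50-base windows unique, against 187 of the 5990 other genes (3.1%). *PHO11* and *PHO12*, secreted acid phosphatases at the right ends of chromosomes I and VIII, differ at 4 of 1404 bases (99.7% identical). *SNZ2* and *SNZ3*, vitamin B6 synthesis genes at the left ends of XIV and VI, differ at 6 of 897 bases (99.3%). The 60-base stretch in which *PHO11* and *PHO12* differ most, bases 1209 to 1268 of each gene, lies at chrI:226668-226727 and chrVIII:553307-553366 (plus strand, R64), with the 2 differing bases in capitals.
PHO11: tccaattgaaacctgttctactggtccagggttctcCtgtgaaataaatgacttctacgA
PHO12: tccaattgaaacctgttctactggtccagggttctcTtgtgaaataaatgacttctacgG
Values of such pairs are given below as uncertain in how reads were shared between the copies.

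The counts totalled 5258139 to 6836827 per library, and members took 1.18% to 1.88% of them. The deleted genes were at 0 to 3 counts for *PSH1* (12 libraries) and 0 to 2 for *HTZ1* (6 libraries), against 165 to 330 and 556 to 837 where they were intact. *CSE4* reached 10830 to 21978 CPM (counts scaled to library size by TMM) in the 5 induced libraries against 20.5 to 53.8 elsewhere. The *HHT1* gene of histone H3 reached 4063 to 4410 CPM in induced *pGAL-H3* against 508 to 1147. Of the a-cell genes, the receptor gene *STE2* had 1114 to 3665 counts, *STE6* 805 to 1624, *MFA2* 117 to 497, *AGA2* 42 to 241, *MFA1* 22 to 151 and *ASG7* 24 to 83. Of the alpha-cell genes, the receptor gene *STE3* had 0 to 9 counts, *MF(ALPHA)2* 22 to 51 and *SAG1* 155 to 388, so not all of them were near 0 in these *MATa* strains. In the batch 1 libraries of *psh1Δ* and *psh1Δ pGAL-3Flag-CSE4*, the median gene of chromosome I stood 0.79 to 0.91 log2 above the WT library of the same batch, whereas the other 24 libraries lay between -0.17 and 0.07. Chromosome I holds 9 members, and each comparison that uses these strains is given with batch 1 left out. At t0 batch 3 stood apart from batches 1 and 2 for several members, as the values below show.

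The members were expressed at low levels. Their median was 72.1 counts per library against 322 over all genes, and 49 of 219 (22.4%) averaged under 10 counts against 359 of 6209 (5.78%). Per length, the median level in WT at t0 was 12.7 CPM per kb against 40.9 over all genes. The level rose with distance from the end, with medians of 4.89 CPM per kb for the 48 members within 5 kb, 6.3 for the 47 at 5 to 10 kb, 13.4 for the 65 at 10 to 15 kb and 26.6 for the 59 at 15 to 20 kb. The 300 genes at 20 to 40 kb had a median of 34.9 and the 5688 genes further in 42.1. The medians at left and right ends were 12.8 and 12.2 CPM per kb. The share of well-placed genes rose along the same axis, from 13 of 48 with at least 95% unique windows within 5 kb to 47 of 59 at 15 to 20 kb, and its part in the gradient was not tested. The range among members was wide. *STL1*, a glycerol transporter 15.8 kb from the right end of IV, stood at 1483 CPM per kb in WT at t0, and *HXK1*, a hexokinase 10.2 kb from the right end of VI, at 1387, whereas the Y' element helicase gene *YRF1-2* at the right end of V was at 0.204 and *PHO11* at 0.255. *YRF1-2* has fewer than 95% unique windows and *PHO11* is near-identical to *PHO12*. Reads of both may not have been placed, so these 2 low values are uncertain.

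Loss of H2A.Z was compared with WT at each time. Before galactose, 16 of the 219 members were lower in *htz1Δ* (7.31%, against 2.32% of all 6209 genes) and none was higher (against 0.66% of all genes), at an edgeR adjusted p under 0.05 and a change of at least 1.5-fold. At an unadjusted p under 0.05, 11 of the 219 members were higher (against 10.4% of all genes). DESeq2 called 1 member higher, and its share over all genes is not given here. After galactose, 26 members were lower (11.9%, against 3.93%) and 6 were higher (2.74%, against 2.61%). Of these, 14 were lower at both times. The 3 *htz1Δ* and the 3 WT libraries did not overlap for any of the called members at either time. The calls were made on these same libraries. This statement, and the same one for called genes below, is therefore a description and no separate support. The median member changed by -0.11 at t0 and -0.18 at t2 on the log2 scale, against 0.01 and -0.01 over all genes, and 62.1% and 64.4% of members lay below 0 against 48.8% and 51.6% of all genes. In *psh1Δ* 58.4% of members lay below 0 at each time (against 48.3% and 45.5% of all genes), with medians of -0.03 and -0.05. In WT from t0 to t2 64.4% did (against 52.1%). A lean below 0 is therefore not particular to *htz1Δ*. With the batch as a block, which pairs the libraries, 28 members were lower at t0 (against 4.01% of all genes), the 16 among them, and 1, *YLR460C*, was higher (against 1.85%). In the blocked fits 22 members were lower at both times. The share of all genes lower at both times is not given here, with or without the block. No result about the members is read from the counts at both times. The t0 count changed with the batches used. It was 0 without batch 1 and 0 without batch 2, and without batch 3 it was 22 lower and 2 higher. At t2 the count was 11 lower and 2 higher without batch 1, 22 and 5 without batch 2, and 18 and 2 without batch 3. The shares of all genes called in these smaller fits are not given here. These counts are therefore not read as a result about the members.

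**Figure D1:**
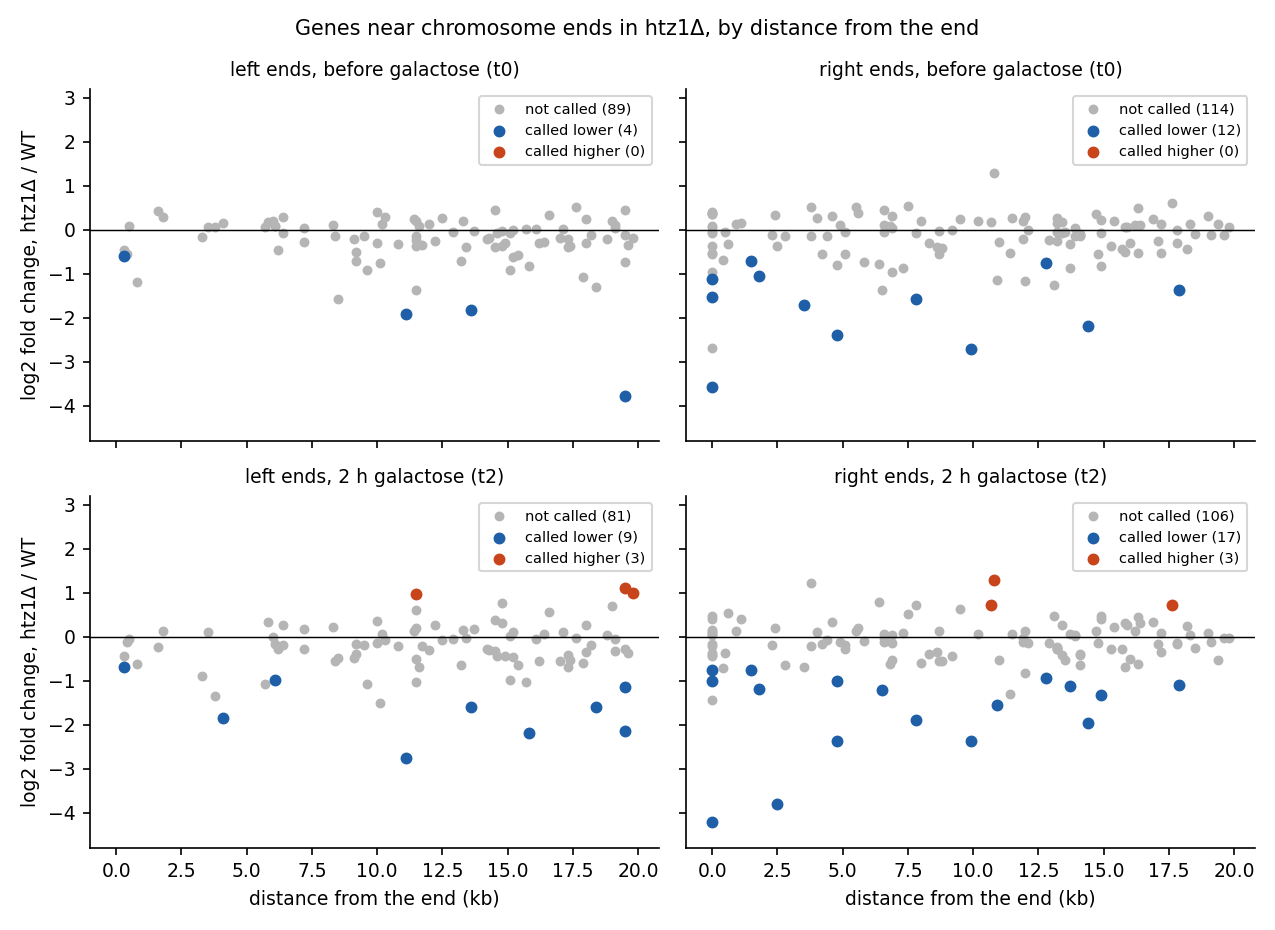
Each point is 1 of the 219 members, for left and right ends at t0 and t2. The x axis gives its distance from the end in kb, at right ends from the last listed gene. The y axis gives its log2 fold change in *htz1Δ* over WT. Members called lower (blue) lie at all distances, 4 at left and 12 at right ends at t0 and 9 and 17 at t2, and members called higher (red) appear at t2 only and not within 10 kb of the end.

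The clearest falls among members whose reads can be placed were in *YDR541C*, *YHL044W*, *YMR310C* and *FET4*. *YDR541C*, which encodes a putative reductase, lies at the right end of IV, 4.8 kb from the end of the last listed gene. It was at 19.7, 18.0 and 25.9 CPM in WT at t0 (batches 1, 2 and 3) and at 5.59, 2.73 and 3.36 in *htz1Δ*, a log2 change of -2.40 ± 0.27 (SE, n = 3 and 3, edgeR adjusted p = 0.00853). At t2 it was at 26.1, 23.4 and 25.3 in WT and 7.67, 3.14 and 3.46 in *htz1Δ*, a 5.22-fold lower level (edgeR adjusted p = 0.000526). Every *htz1Δ* library lay far below every WT library at both times. *YHL044W*, a DUP240-family membrane protein gene 13.6 kb from the left end of VIII, was at 17.5, 16.4 and 22.5 CPM in WT and 6.30, 5.45 and 3.73 in *htz1Δ* at t0. It was 3.57-fold lower there (edgeR adjusted p = 0.00967) and 3.01-fold lower at t2 (edgeR adjusted p = 0.00347).

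*YMR310C* and *FET4* are both at the right end of XIII. *YMR310C*, a putative methyltransferase gene 17.9 kb from the end, was at 44.9, 50.9 and 53.7 CPM in WT at t0 and 17.5, 17.4 and 22.7 in *htz1Δ*, a log2 change of -1.37 ± 0.14 (edgeR adjusted p = 0.00702). Its change at t2 was -1.10 ± 0.12, from 60.8, 58.2 and 74.1 to 31.7, 29.2 and 29.1 CPM. *FET4*, the low-affinity iron transporter and the last listed gene of that end, was at 68.8, 62.2 and 62.0 CPM in WT at t0 and 25.5, 36.7 and 26.3 in *htz1Δ*. It was 2.18-fold lower there (edgeR adjusted p = 0.0113) and 2.00-fold lower at t2 (edgeR adjusted p = 0.0013). Both genes fell in every batch, and neither comparison had overlapping groups.

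*CHA1*, *PHO89*, *IRC24* and *ENB1* were lower at t2, and at t0 they were called only with the batch as a block. *CHA1*, the serine and threonine deaminase 15.8 kb from the left end of III, was at 84.9, 136 and 65.2 CPM in WT at t2 and at 18.9, 21.4 and 22.0 in *htz1Δ*, a log2 change of -2.20 ± 0.24 (edgeR adjusted p = 0.000526). At t0 its groups overlapped, since batch 3 was at 36.3 CPM in WT against 163 and 162 in batches 1 and 2, and the log2 change was -0.82 ± 0.63 (edgeR adjusted p = 0.499). Within batches 1, 2 and 3 its t0 changes were -0.84, -0.82 and -0.80, and the blocked fit gave -0.82 ± 0.07 (edgeR adjusted p = 4.69e-05). *PHO89*, the sodium and phosphate cotransporter 10.9 kb from the right end of II, was at 12.4, 16.9 and 13.6 CPM in WT at t2 and 3.54, 5.89 and 5.09 in *htz1Δ* (log2 -1.56 ± 0.23, edgeR adjusted p = 0.00167). Its t0 groups did not overlap either, with an edgeR adjusted p of 0.056, or 0.000863 with the block. *IRC24*, a putative benzil reductase gene at the right end of IX, changed by -1.33 ± 0.22 at t2 and *ENB1*, a siderophore transporter gene 19.5 kb from the left end of XV, by -1.15 ± 0.19. At t0 the blocked changes were -0.84 ± 0.10 for *IRC24* and -0.75 ± 0.09 for *ENB1* (edgeR adjusted p = 0.000407 and 0.000332, against 0.105 and 0.297 without the block). Whether the galactose response itself differed between *htz1Δ* and WT was tested separately and is given below.

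**Figure D2:**
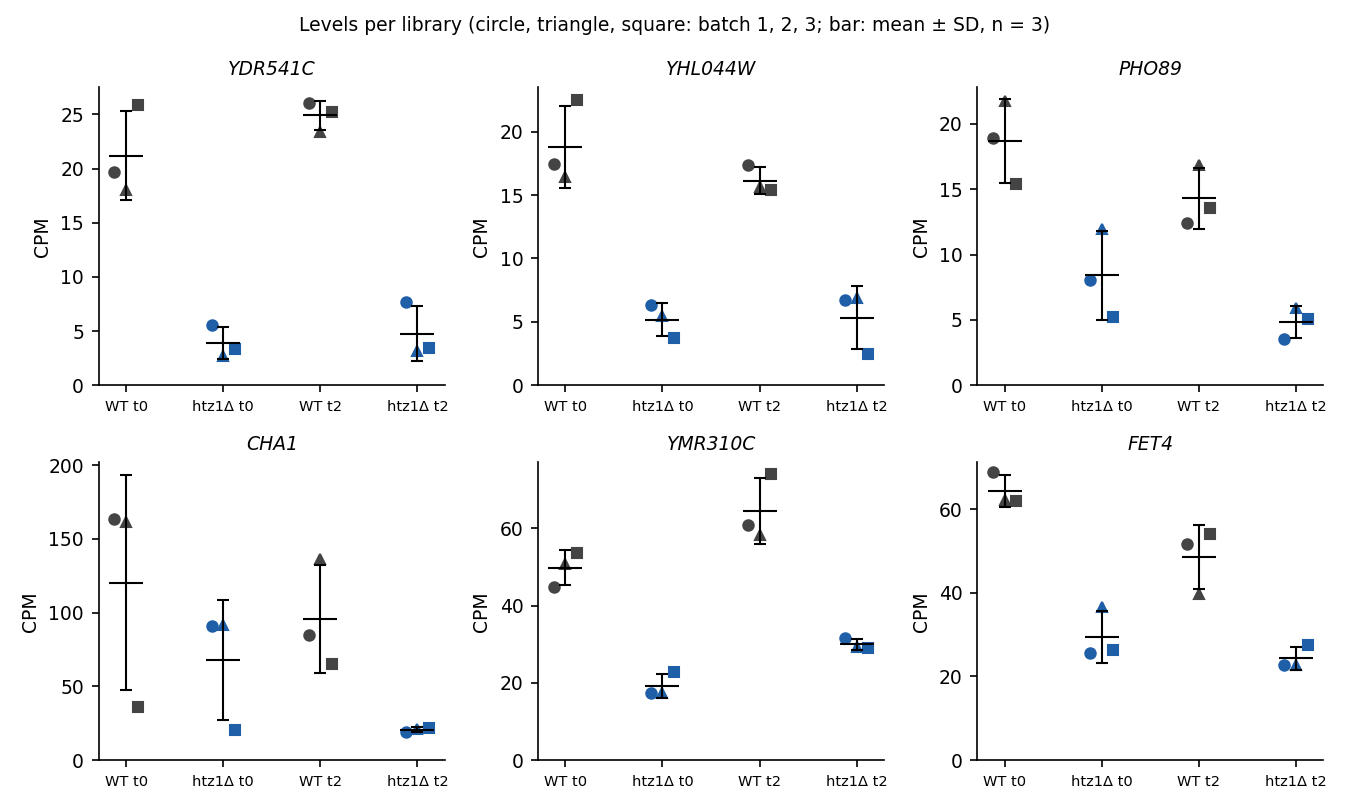
Levels in CPM of 6 members in each WT and *htz1Δ* library at t0 and t2, with the mean and SD (n = 3) as bars and the batch as the symbol. In all 6 genes the 3 *htz1Δ* libraries lie below the 3 WT libraries at t2, while *CHA1* overlaps at t0.

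The largest fold changes were in genes with few counts. *YIR043C*, a possible pseudogene of the COS family and the last listed gene of the right end of IX, had 42 counts over the 3 WT libraries and 3 over the 3 *htz1Δ* libraries at t0, a ratio of 13.3 (95% counting interval 4.24 to 66.9). At t2 it had 52 and 2 counts, a ratio of 21.6 (5.69 to 183). *HXT9*, a hexose transporter gene 19.5 kb from the left end of X, had 34 and 2 counts at t0 (ratio 16.1, 4.13 to 138) and 28 and 5 at t2 (4.66, 1.78 to 15.4). *YER187W*, of unknown function at the right end of V, had 37 and 5 counts at t0 (7.01, 2.75 to 22.9) and 51 and 8 at t2 (5.30, 2.50 to 12.9). *VEL1*, known for induction when zinc is low, had 43 and 5 counts at t2 (7.15, 2.84 to 23.1). No library of the *htz1Δ* group held more than 3 counts of these genes in the comparisons named. *HXT9* and *YIR043C* have 38.07% and 77.48% unique windows, so their reads may come from copies, whereas *YER187W* and *VEL1* have 100% and 97.73%. *THI11*, a thiamine precursor gene with 21.05% unique windows, was also lower at both times, by 4.52-fold and 3.90-fold.

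The acid phosphatase pair *PHO11* and *PHO12* illustrates the limit set by copies. *PHO12* was at 2.54, 2.74 and 2.53 CPM in WT at t0 and 0.860, 0.908 and 0.559 in *htz1Δ*, and was called lower (edgeR adjusted p = 0.0292). At t2 it was not called, at 1.27, 2.11 and 1.46 in WT and 1.57, 0.785 and 0.611 in *htz1Δ*. *PHO11* showed the opposite order of calls, with no call at t0 and a call at t2, where it had 22 counts in WT and 1 in *htz1Δ* (ratio 18.3, 2.96 to 755). With 4 differing bases between them, how reads were divided between the 2 genes cannot be told from the counts.

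The 26 members lower in *htz1Δ* at t2 lay at 17 of the 32 ends, of which 12 held 1 such member and 5 held 2 or more. The right end of III had the most, 5 of its 8 members at t2 (2 at t0, or 5 with the batch as a block), which were *YCR099C*, *YCR100C*, *ADH7*, *RDS1* and *AAD3*. *ADH7*, an alcohol dehydrogenase 4.8 kb from the end, was at 20.4, 18.1 and 16.7 CPM in WT at t2 and 9.24, 10.2 and 7.94 in *htz1Δ* (log2 -1.01 ± 0.17, edgeR adjusted p = 0.00296). *RDS1*, a putative zinc cluster factor involved in resistance to cycloheximide, was at 34.0, 30.4 and 27.8 in WT and 14.8, 20.8 and 19.4 in *htz1Δ* (-0.75 ± 0.15, edgeR adjusted p = 0.00701). *AAD3*, the last listed gene and a putative aryl-alcohol dehydrogenase, was at 27.5, 25.0 and 23.3 in WT and 13.4, 15.3 and 16.3 in *htz1Δ* (-0.76 ± 0.14, edgeR adjusted p = 0.00493). The groups did not overlap for any of these genes. Further in, *YCR099C* changed by -1.12 ± 0.30 and *YCR100C* by -0.93 ± 0.22. These 2 genes overlap each other, and how reads in the shared stretch were counted is not known.

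The remaining 3 members of that end were not called. *YCR101C*, 12.0 kb in, changed by -0.82 ± 0.34 at t2, *YCR102C*, 9.5 kb in, by 0.63 ± 0.25 and *GIT1*, the permease for glycerophosphoinositol 16.4 kb in, by 0.32 ± 0.15. With the batch as a block *YCR099C*, *YCR101C* and *ADH7* were also lower at t0 (-0.85 ± 0.23, -1.17 ± 0.27 and -0.80 ± 0.14, edgeR adjusted p = 0.0192, 0.00957 and 0.00218). In *psh1Δ* the members of this end had log2 changes within 0.61 of 0 at either time and none was called. Other ends with several lower members at t2 were the right end of IX with *IRC24*, *YIR042C* and *YIR043C* among 10, the right end of V with *YER187W* and *YER188W* among 7, the right end of XIII with *YMR310C* and *FET4* among 13, and the left end of XV with *ENB1* and *YOL164W-A* among 8. At t2 *YIR042C*, of unknown function, changed by -1.19 ± 0.22, *YER188W* by -1.89 ± 0.30 and *YOL164W-A* by -1.84 ± 0.55, the last from 1.75, 2.29 and 1.13 CPM in WT to 0.787, 0.392 and 0.204. At t0, 12 of the 32 ends had at least 1 lower member.

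**Figure D3:**
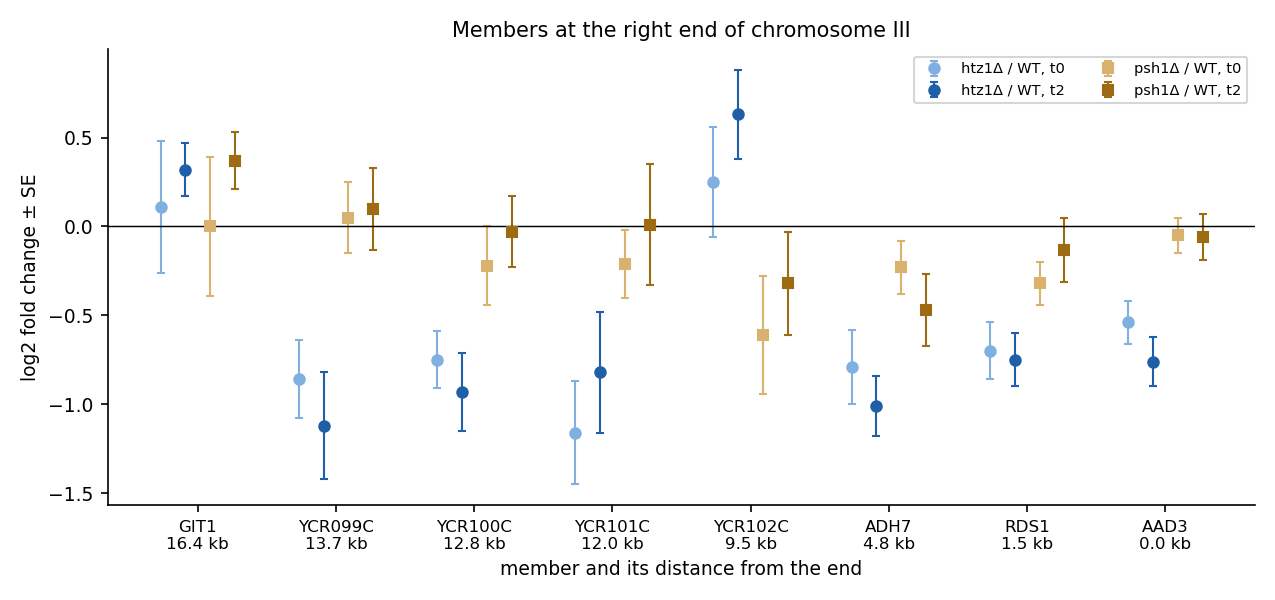
The 8 members at the right end of chromosome III, ordered from the furthest (left) to the last listed gene (right) with the distance in kb, and their log2 fold change ± SE in *htz1Δ* (blue) and *psh1Δ* (brown) over WT at t0 and t2. In *htz1Δ* 6 of 8 lie below 0 at both times, with *YCR102C* and *GIT1* above 0.

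By side, members lower in *htz1Δ* at t2 were 9 of 93 at left ends (9.68%) and 17 of 126 at right ends (13.5%), and at t0 4 (4.3%) and 12 (9.52%). By distance at t2, they were 10 of 48 within 5 kb (20.8%), 4 of 47 at 5 to 10 kb (8.51%), 7 of 65 at 10 to 15 kb (10.8%) and 5 of 59 at 15 to 20 kb (8.47%). At 20 to 40 kb the share was 24 of 300 genes (8.0%) and further in 194 of 5688 (3.41%). At t0 the same bins gave 8, 2, 4 and 2 members, or 16.7%, 4.26%, 6.15% and 3.39%, then 4.0% and 2.04%. The share was therefore highest within 5 kb at both times, and the other bins had no steady order. Measured from the end of the reference chromosome in place of the last listed gene, 7 of 27 members within 5 kb were lower at t2 (25.9%). Without batch 1 the share within 5 kb was 4 of 48 (8.33%). These shares were not tested, and members of 1 end are not independent.

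Among the 125 members with at least 95% unique windows, 9 were lower at t0 (7.2%) and 17 at t2 (13.6%), so the shares were close to those of all 219. Within 5 kb 5 of 13 such members were lower at t2 (38.5%). The 6 members higher at t2 were *SUL1*, *YMR315W*, *ERO1*, *HXT12*, *YIL171W* and *YLR460C*, of which 3 have at least 95% unique windows. *ERO1*, the thiol oxidase of protein folding in the endoplasmic reticulum, was at 180, 264 and 167 CPM in WT at t2 and 322, 522 and 364 in *htz1Δ* (log2 0.98 ± 0.20, edgeR adjusted p = 0.00734). The sulfate permease gene *SUL1* was at 42.3, 53.7 and 46.3 in WT and 69.0, 66.1 and 98.6 in *htz1Δ* (0.71 ± 0.15, edgeR adjusted p = 0.0109), and the NADP(H) oxidoreductase gene *YMR315W* at 148, 211 and 152 and 320, 290 and 230 (0.72 ± 0.15, edgeR adjusted p = 0.0109). *HXT12* and *YIL171W* are 2 parts of 1 non-functional hexose transporter gene at the left end of IX and rose by 1.99-fold and 2.14-fold, so they are not separate cases. *YLR460C*, of the quinone oxidoreductase family, rose 2.46-fold, with a log2 change of 1.28 ± 0.35 at t0 (edgeR adjusted p = 0.0766, or 0.00397 with the block).

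The families that fill chromosome ends are short lists, in each of which the 2.32% and 3.93% of all genes called lower would come to less than 1 gene, so a list with no call does not stand apart from the background. Of the 8 COS membrane protein genes among the members none was called at either time, with a median log2 change of 0.20 at t0 and at t2. *COS6*, at the right end of VII, was at 117, 96.0 and 139 CPM in WT at t0 and changed by 0.41 ± 0.13, and *COS8* by 0.30 ± 0.10. Of the 9 maltose and isomaltose genes none was called in *htz1Δ*. *MAL31*, the maltose permease gene 4.9 kb from the right end of II, changed by 0.11 ± 0.17 and -0.13 ± 0.09 and its activator gene *MAL33* by 0.53 ± 0.14 and 0.52 ± 0.13, the latter under the size needed for a call. Of the 7 aryl-alcohol dehydrogenase genes only *AAD3* was called, at t2, while *AAD14* was at 32.7, 31.4 and 34.0 CPM in WT at t0 and changed by 0.01 ± 0.10. Of the Y' element helicase genes, *YRF1-4* and *YRF1-2* were each under 3 CPM in every WT library at t0, and the helicase-like *YBL113C* at the left end of II was lower at both times (1.52-fold and 1.60-fold), with 18.5% unique windows and an overlap with *YBL112C*.

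A few of the lower members were in the lists of metal and phosphate genes. Among them *PHO11* and *PHO12* are near-identical, so they are not separate cases. Of the 6 iron and siderophore genes 2 were lower at t0 (*FET4* and *GEX2*) and 2 at t2 (*FET4* and *ENB1*), with medians of -0.48 and -0.53. *GEX2*, a glutathione antiporter gene with 39.8% unique windows, was 2.88-fold lower at t0 and changed by -0.44 ± 0.50 at t2. *ARN1* and *ARN2*, siderophore transporter genes at the left end of VIII, were not called, at -0.33 ± 0.24 and -0.56 ± 0.22 at t2. Of the 5 phosphate and zinc genes *PHO12* was lower at t0 and *PHO11* and *PHO89* at t2, with medians of -0.37 and -0.68, while *ADH4* changed by 0.00 ± 0.11 and 0.10 ± 0.10. In the arsenic and drug list *RDS1* was lower at both times among 6 genes, and *ARR1*, the arsenic-resistance activator gene at the right end of XVI, changed by -0.02 ± 0.10 and 0.12 ± 0.11, and *SGE1*, a drug efflux gene, by 0.30 ± 0.14 and 0.14 ± 0.13. In the hexose list *HXT9* was lower at both times and *HXT12* higher at t2 among 5 genes, with *HXT15* at -0.21 ± 0.45. Of 8 thiamine and pyridoxine genes only *THI11* was called. None of the 4 sulfur and amino acid uptake genes was called. *MMP1*, the S-methylmethionine permease gene, changed by 0.24 ± 0.16 and 0.27 ± 0.15, and *BDS1*, a sulfatase gene, changed by -0.46 ± 0.08 at t0 (edgeR adjusted p = 0.0272), under the size needed. The single members of 3 other lists were not called, with *PAU24* under 1 CPM in every WT library at t0, *FLO10* at -0.41 ± 0.12 and *BIO2*, for biotin synthase, at -0.14 ± 0.10 at t2.

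In WT more members fell than rose over the 2 hours after galactose was added. The samples analysed here hold no t2 culture without galactose, so galactose and time in culture cannot be told apart. From t0 to t2, 11 of the 219 members fell (5.02%, against 1.87% of all genes) and 2 rose (0.913%, against 1.13%). With the batch as a block 18 members fell (against 2.96% of all genes), and the 13 calls were kept. The count was 0 without batch 1 and 0 without batch 2, and 18 lower and 3 higher without batch 3, where the shares of all genes are not given here. The median member changed by -0.13 against -0.01 over all genes. Those called lower lay between 7.2 and 18.4 kb from an end, 0 of 48 within 5 kb, 1 of 47 at 5 to 10 kb, 5 of 65 and 5 of 59 in the next bins, whereas the largest share of members lower in *htz1Δ* lay within 5 kb. That difference was not tested. *FDH2* was lower both here and in *htz1Δ*, and with the batch as a block *GEX2*, *YPL276W* and *YPL277C* were as well.

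The formate dehydrogenase genes fell most. *FDH2*, at the left end of XVI, was at 34.6, 47.8 and 12.3 CPM at t0 and 4.93, 7.04 and 2.75 at t2, a 6.52-fold fall (edgeR adjusted p = 0.0302). *FDH1*, at the right end of XV, fell 6.30-fold, from 25.1, 20.3 and 4.56 to 1.75, 4.75 and 1.62, where the lowest t0 library overlapped the highest at t2. *FDH2* has 15.71% and *FDH1* 15.8% unique windows, so their reads cannot be assigned with certainty. *SUL1* went from 185, 168 and 58.8 to 42.3, 53.7 and 46.3 CPM (log2 -1.55 ± 0.36, edgeR adjusted p = 0.0454), and *YPL277C*, a membrane protein gene regulated by copper, from 38.3, 44.9 and 16.7 to 8.91, 12.3 and 8.26. In all 4 genes batch 3 was the lowest at t0 and had the smallest log2 fall.

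Several falls were smaller and more even between batches. *COX14*, a cytochrome c oxidase assembly factor gene 14.5 kb from the left end of XIII, went from 69.4, 68.1 and 67.9 to 37.8, 41.3 and 49.1 CPM (log2 -0.69 ± 0.11, edgeR adjusted p = 0.024). *YMR31*, which encodes a subunit of the mitochondrial alpha-ketoglutarate dehydrogenase complex, went from 129, 139 and 118 to 88.9, 87.6 and 81.8 (-0.59 ± 0.09). *SNZ3* and *SNZ2*, the near-identical vitamin B6 genes shown above as a pair, fell 1.84-fold and 1.72-fold, and the isomaltase gene *IMA1* 1.87-fold. *YDR535C* and *YEL073C* fell 1.79-fold and 1.70-fold. The 2 members that rose were *ERO1*, from 112.5, 126 and 92.9 to 180, 264 and 167 CPM (0.87 ± 0.19, edgeR adjusted p = 0.0362), and *IRC7*, a beta-lyase gene at the right end of VI, from 22.8, 23.2 and 33.0 to 37.1, 41.5 and 44.0 (0.63 ± 0.15, edgeR adjusted p = 0.0485). *ERO1* was thus higher at t2 than at t0 in WT, and higher again in *htz1Δ* at t2.

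**Figure D4:**
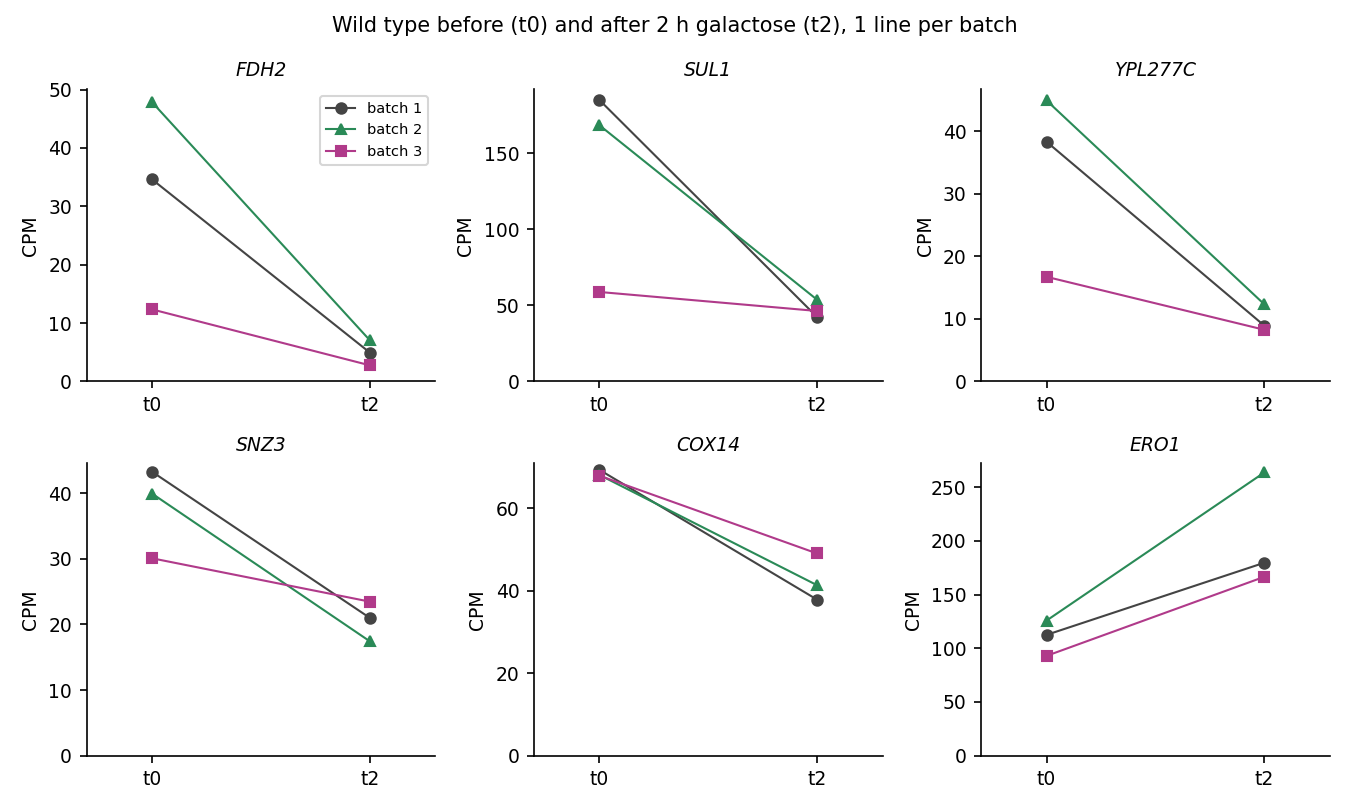
Levels in CPM of 6 members in WT before (t0) and after 2 hours in galactose (t2), with 1 line per batch. *FDH2*, *SUL1* and *YPL277C* start lower in batch 3 than in batches 1 and 2, and all 3 batches fall in the first 5 genes and rise in *ERO1*.

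The t0 to t2 response of *htz1Δ* was compared with that of WT. No member was called by edgeR (against 0% of all genes), and 11 members had an unadjusted p under 0.05 (5.02%, against 4.45% of all genes), while DESeq2 also called none. The smallest unadjusted p values belonged to *HXT12*, at 1.18 ± 0.41, and the COS family gene *COS10*, at 0.86 ± 0.30 (both edgeR adjusted p = 0.987). The calls that differ between t0 and t2 in *htz1Δ*, *CHA1* among them, are therefore not shown to differ between the times.

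Loss of Psh1 alone gave no call among the members. At t0 edgeR called none (against 0.0161% of all genes), 8 had an unadjusted p under 0.05 (3.65%, against 2.75%) and DESeq2 called none. At t2 edgeR again called none (against 0.0161%), 11 had an unadjusted p under 0.05 (5.02%, against 1.69%) and DESeq2 called none. The counts stayed at 0 with batch 1, where chromosome I is high, left out. The members with the smallest unadjusted p were *THI12* at t0, at -1.09 ± 0.35, and *YAR075W* at t2, at -1.58 ± 0.53. *YAR075W* is itself on chromosome I, 1 of the 9 members there.

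In *psh1Δ pGAL-3Flag-CSE4*, where CENP-A is both induced and stabilized, the change from t0 to t2 was compared with that of WT. No member was called by edgeR (against 0.338% of all genes), 34 had an unadjusted p under 0.05 (15.5%, against 16.1% of all genes), and the call rate depended on the fit. DESeq2 called 6 members higher (against 1.61% of all genes), the batch block 2 (against 0.29%) and 1 fit over all 34 libraries 10 (against 1.82%). None was lower in any of these fits, but the shares of all genes called lower in them are not given here. No direction of the members is therefore read from these counts. *GIT1* and *ADH6* were called in each of these 3 fits, and *IMA1* and *AAD4* in DESeq2 and the joint fit. Without each batch in turn, batch 1 included, edgeR called none.

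*GIT1* went from 28.1, 19.0 and 17.2 CPM at t0 to 56.6, 39.5 and 45.5 at t2 in *psh1Δ pGAL-3Flag-CSE4*, and from 33.3, 23.8 and 15.5 to 18.1, 17.8 and 15.4 in WT. The difference of the changes was 1.62 ± 0.36 (edgeR adjusted p = 0.0627), with the same sign in all 3 batches. *ADH6*, an NADPH-dependent alcohol dehydrogenase gene 2.4 kb from the right end of XIII, went from 275, 256 and 321 to 541, 611 and 817 CPM, and from 269, 294 and 302 to 297, 330 and 375 in WT (0.98 ± 0.22, edgeR adjusted p = 0.0627). *IMA1* went from 17.0, 21.7 and 31.2 to 31.9, 39.7 and 30.7 while WT went down (1.43 ± 0.34, edgeR adjusted p = 0.0672). The t2 values of *GIT1*, *ADH6*, *IMA1* and *AAD4* in this strain lay above those of every WT, *psh1Δ*, *pGAL-3Flag-CSE4* and *pGAL-H3* library at t2. These genes were picked after their values were seen, so the separation is a description and no separate support. *PHO12* differed by 1.55 ± 0.36, from 2.60, 1.79 and 1.68 to 3.64, 3.78 and 3.86 CPM, with the limit on copies given above.

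Each histone gene induced in cells with Psh1 gave no call among the members either. With *pGAL-3Flag-CSE4*, in 2 batches, edgeR called none (against 0.0161% of all genes), 5 had an unadjusted p under 0.05 (2.28%, against 2.25%) and DESeq2 called none. The smallest p values were those of *PHO12* and *IMA1*, at 1.40 ± 0.43 and 1.03 ± 0.34 (both edgeR adjusted p = 0.999). With *pGAL-H3* edgeR called none (against 0.0161%), 8 had an unadjusted p under 0.05 (3.65%, against 5.89%) and DESeq2 called none. There *IMA1* went from 20.1, 22.8 and 29.5 to 19.5, 19.5 and 19.1 CPM and *GIT1* from 26.8, 24.9 and 14.7 to 18.3, 27.8 and 17.7. All 4 comparisons of responses use the same WT libraries, so their values for a member share the WT part.

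**Figure D5:**
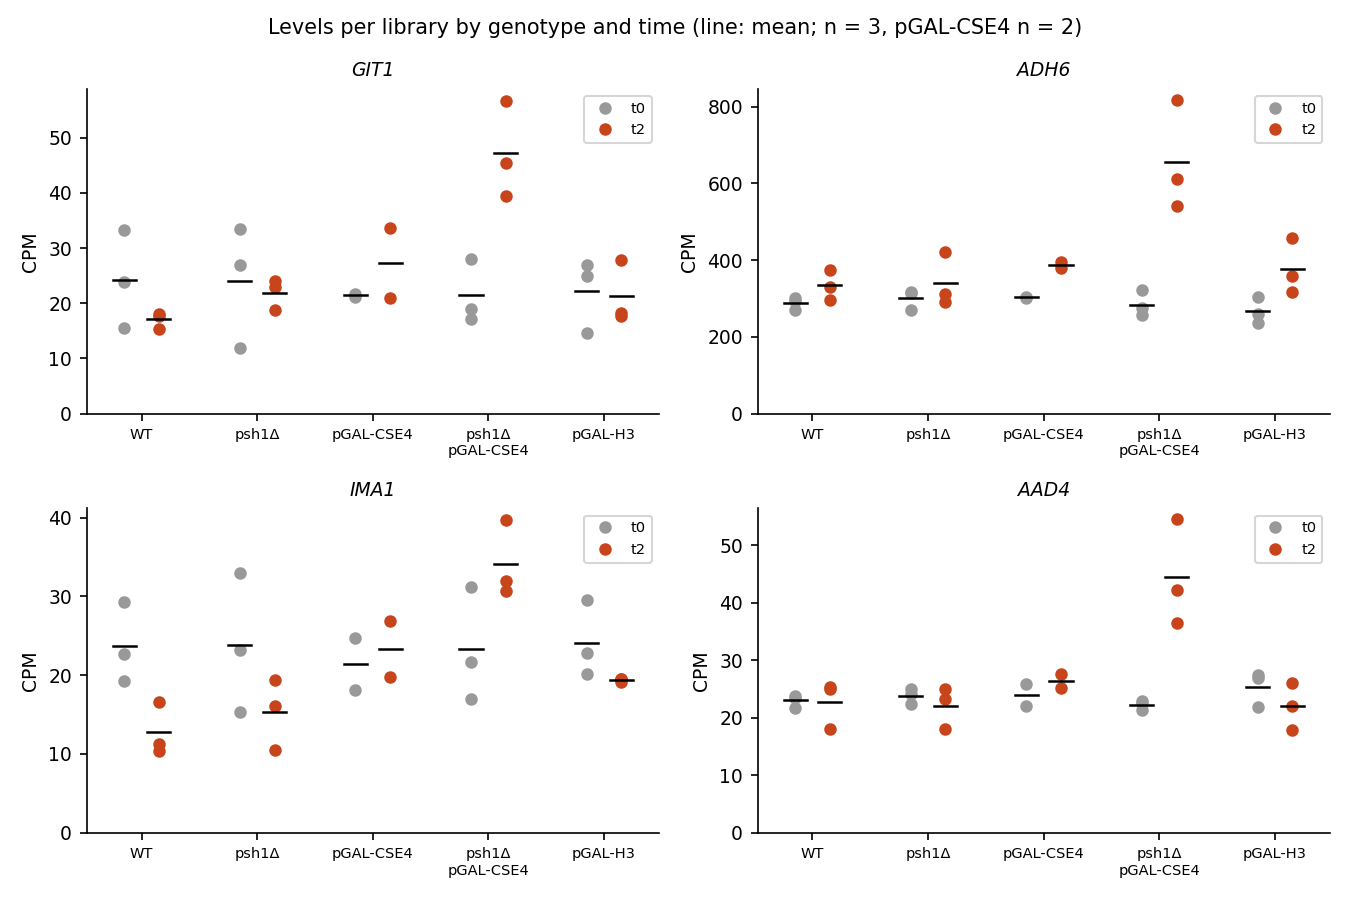
Levels in CPM of *GIT1*, *ADH6*, *IMA1* and *AAD4* in each library of 5 genotypes at t0 (grey) and t2 (red), with the mean as a line (n = 3, *pGAL-3Flag-CSE4* n = 2). The 3 *psh1Δ pGAL-3Flag-CSE4* libraries at t2 lie above all the other t2 libraries shown for each gene, and the genes were picked after these values were seen.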

How the data were processed

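The authors filtered reads, aligned them to SacCer3 with TopHat 2.1.0 and counted reads on genes with HTSeq 0.6.1, and their deposited tables hold these raw counts. Whether strand was used in counting is not given in the sources used here. The 64 count columns were read, and counts of a library did not differ between the tables that list it. The deposited tables also hold the authors' normalized CPM (a score here, since its columns do not sum to a fixed total) and a score that marks called genes, log2 fold changes and mean log2 CPM, and p-values with adjusted p-values, made by the authors with edgeR 3.12.0. None of these was used.

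Counts were analysed with edgeR 4.0.16 in R 4.3.3 (TMM factors 0.864 to 1.07, quasi-likelihood test) on the libraries of the groups compared, without a batch term. A call needed a Benjamini-Hochberg adjusted p under 0.05 over all 6209 genes and a change of at least 1.5-fold. Responses were compared as (strain t2 - t0) - (WT t2 - t0). For single batches, 0.5 CPM was added before taking log2. Where a group had at most 3 counts in each library, the ratio of summed counts is given with an exact binomial 95% interval, which covers counting error only. The fits were also run on simulated counts without a batch effect, in which only genes with more counts were changed. That run cannot show how the fits behave with these batches or for members with few counts. Of the genes, 5714 matched the reference annotation and 99.82% of these had the same coordinates. Sequences are from the R64 genome.

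The members and lists were chosen with earlier results of these data known. Named are up to 10 called members with the largest rise and fall (same sign in every batch, at least 10 counts in the higher group) for *htz1Δ* at t0 and t2 and for WT, and from each family list the 2 with most counts and those called in *htz1Δ*. The members at the right end of III, *YMR310C*, *YIR042C*, *IRC24*, and those named for *psh1Δ*, *pGAL-H3* and both *pGAL-3Flag-CSE4* genotypes were named after their values were seen, as were *COS10*, *STL1*, *HXK1*, *YBL113C*, *YMR31*, *YPL276W* and the members given only with the batch as a block. The list of silent mating locus genes had no member in the tables and was not analysed here.

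Libraries with the same number are paired, since the labels call that number a batch. Over 177 pairs of same-batch libraries of different groups, the correlation of deviations from the group means ran from -0.396 to 0.797 with a median of 0.148. Alternatives were DESeq2 1.42.0, its size factors in edgeR, a filter of 10 counts in 3 libraries, the batch or culture as a block, a joint fit of all 34 libraries, leaving out each batch, and members with at least 95% unique windows. Replicates are cultures of different strain isolates. DESeq2 gave no adjusted p to 14 members at t0 and 97 in the galactose comparison.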

Additional observations from a re-analysis of the deposited data

How the results depend on the processing

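In every fit that called members in *htz1Δ*, more were called lower than higher. Over all genes more were also lower, 144 against 41 at t0 and 244 against 162 at t2. With the batch as a block at t0 they were 249 against 115. The direction alone therefore does not set the members apart. For the fits with a batch left out, the shares over all genes are not given here. At t0 the 16 called members became 29 with the batch as a replicate block, 28 lower and 1 higher, and 9 among members with at least 95% unique windows. Leaving out 1 batch gave 0 to 24. At t2 the 32 called members became 20 among unique members, and 13 to 27 with a batch left out. The share lower within 5 kb, 20.8%, was 38.5% among unique members and ran from 8.33% to 18.8% with a batch left out. For WT from t0 to t2 the 13 called became 20 with the replicate block and 7 among unique members, with 0 to 21 when a batch was left out. For *psh1Δ pGAL-3Flag-CSE4* the 0 called became 6 with DESeq2, 2 with the replicate block and 10 with all 34 libraries in 1 fit, and stayed 0 with any batch left out. The replicate block changed no other count by over 1.5 times, and the culture as a block gave 0 in all 4 comparisons of responses. The causes were not tested, except that fewer libraries or fewer members enter some of these fits. Of 537 values of single genes under the alternatives, 404 kept their side of the threshold, 120 lost and 13 gained a call, and none reversed. The losses were concentrated in the fits with a batch left out. Without batch 1, 49 values lost their call and 18 were kept. Without batch 2 these were 39 and 28, and without batch 3 they were 18 and 49. With 22.4% of members under 10 counts, small changes of the lowest genes were not detectable at this depth.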
